A study of Mus musculus with 22 samples.

Results

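Transcripts of 10 genes of polyamine metabolism were followed in mouse duodenal organoids exposed to cold atmospheric plasma (CAP). The genes were taken by symbol from the deposited table, 10 of its 52636 genes: Arg2, Odc1, Azin1, Oaz1, Oaz2, Amd1, Srm, Sms, Sat1 and Smox. All 10 passed the filter on low values in every comparison. They were chosen by function with the measured values of these same 22 libraries already known, so that the counts and p-values of the list are given as a description of these genes and not as independent evidence about the pathway.

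Polyamines are small positively charged molecules that bind nucleic acids and support translation and cell growth, and rapidly renewing tissues such as the intestinal epithelium turn them over at a high rate. Ornithine, which arginase makes from arginine, is decarboxylated to putrescine by ornithine decarboxylase, and spermidine synthase and spermine synthase then add aminopropyl groups taken from decarboxylated S-adenosylmethionine. In the opposite direction, spermidine and spermine are acetylated by SAT1 and oxidized back, or spermine is oxidized directly by SMOX with release of hydrogen peroxide. Antizymes bind ornithine decarboxylase and lead it to the proteasome, and antizyme inhibitors compete for that binding.

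The organoids were grown from the duodenal epithelium of wild type adult mice aged 2 months. By the study's methods the mice were of the outbred CD1 strain. RNA was sequenced from 22 libraries. They came from 4 organoid lines, each from 1 mouse, which are called lines 1 to 4 here. There was 1 untreated library per line and, in each of 6 treated groups, 1 library of lines 1, 2 and 4. Line 3 was present in the controls only. The labels give passage 12 for line 1, passage 14 for line 2 and passage 4 for lines 3 and 4.

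The untreated cultures received no plasma. In the direct CAP groups a helium plasma jet (50 W, 60 s) was applied to the culture at day 1, and the medium was changed after 30 min or after 24 h. In the indirect CAP groups the organoids were given medium taken from another treated culture, and in the PAM groups (plasma-activated medium) they were given medium that had been treated without organoids. These conditioned media were given for 24 h, either freshly made from day 1 or from day 2, when media made at day 1 were used. The labels state 30 min for indirect CAP and PAM from day 1 where the study's methods state 24 h. The methods' times are used here, with an endpoint at day 3, so that cultures exposed from day 2 were still in the treated medium at the endpoint whereas those exposed from day 1 had been returned to fresh medium. The moment at which the 30 min group was collected is not certain. Day of exposure, time since exposure and, for the conditioned media, age of the medium therefore cannot be told apart.

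Each value is the number of reads of a gene scaled to 20 M reads per library (M for mega), without division by gene length. Library sums lay between 20007540 and 20016513, and the reads counted before scaling were estimated from the spacing of low values at between 20.0 and 28.7 M, the estimates near 20 M being the least certain. Fold changes are on the scale of log2(value + 1) and p-values are Benjamini-Hochberg adjusted over all genes tested with limma. A gene is said to have risen or fallen when its adjusted p was under 0.05, and to be past the strict threshold when its adjusted p was also under 0.01 and its log2 fold change 1 or more in size. All comparisons with untreated organoids share the same 4 control libraries. Which line gave which of the untreated libraries 1 and 2 is in doubt, since after removal of group means the untreated library of line 1 correlated less with treated libraries of its own line (median r 0.0753) than with those of line 2 (0.54).

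The labels call the cells stem cells, whereas the libraries held markers of a whole intestinal epithelium. The 5 epithelial markers summed to between 74219 and 126368 in every library, and the 7 enterocyte markers to at least 72077. Fibroblast markers summed to at most 17 and endothelial markers to at most 28, both near 0. Leukocyte markers were low but not near 0, at most 198. In the controls they summed to 132 to 177, beside 84 to 133 for markers of tuft cells, an epithelial type. The sum of 5 stem cell markers was 32557 to 38876 in untreated organoids and 757 to 2747 with PAM from day 2, and the sum of 6 proliferation markers was 22275 to 29142 and 4213 to 8508. In the same 2 groups Paneth markers summed to 20319 to 27172 and 3601 to 15581. Goblet markers summed to 72214 to 128995 and 15784 to 43005, and tuft markers to 84 to 133 and 38 to 68. Enterocyte markers were higher (96785 to 115867 and 140632 to 188681), as were enteroendocrine markers (1431 to 2473 and 2727 to 4542). These levels moved in the same libraries as the polyamine genes described here, and their part in those results was not tested. In bulk RNA, fewer cells of a type and less RNA per cell cannot be told apart.

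In untreated organoids the 10 genes spanned a wide range of levels when values were divided by the length of their exons. Arg2, the mitochondrial arginase, was highest at 3149 ± 644 per kb of exon (SD, n = 4), followed by the antizyme Oaz1 at 2042 ± 219 and by Odc1, which encodes ornithine decarboxylase, at 1203 ± 37.3. Spermidine synthase (Srm) stood at 809 ± 40.9, Sat1 at 621 ± 140 and the antizyme inhibitor Azin1 at 582 ± 94.4. The ranges of Sat1 and Azin1, and those of Sat1 and Amd1 (S-adenosylmethionine decarboxylase, 408 ± 26.6), overlapped. Spermine synthase (Sms, 138 ± 19.8) was lower than all of these, and the second antizyme Oaz2 (77.4 ± 12.0) and spermine oxidase (Smox, 65.0 ± 9.97) were lowest with overlapping ranges. The length used was that of all exons of all annotated transcripts of a gene. For Oaz1 it was 2558 bases, nearly the whole gene, which lowers its level per kb. The order depends on this length, since undivided the mean of Oaz1 (5224) was above that of Arg2 (4496.5).

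**Figure D1:**
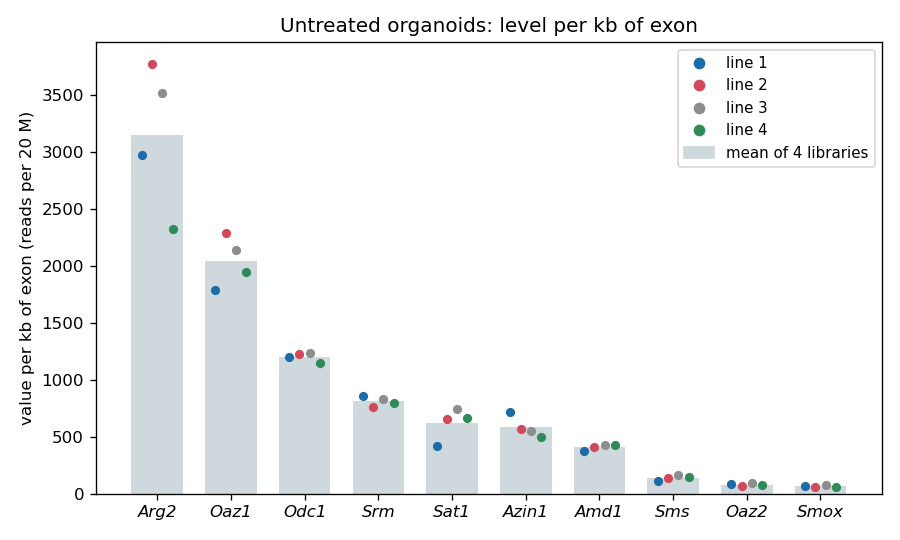
Level of each polyamine gene in the 4 untreated libraries, as value per kb of exon (reads per 20 M, linear axis from 0), with bars for the mean and 1 point per organoid line. Arg2 stood highest at 3149 per kb and Oaz2 and Smox lowest, at 77.4 and 65.0 per kb. The order depends on the exon length, taken over all annotated transcripts.

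Among the polyamine genes followed, the largest fall was that of the Arg2 transcript, which encodes an arginase. Ornithine itself was not measured, so its supply was not tested. Arg2 (ENSMUSG00000021125, chr12:79130777-79156301, plus strand, GRCm38) had values of 4251, 5390, 5030 and 3315 in the untreated libraries of lines 1 to 4. Direct CAP for 30 min left 4687, 3749 and 2945 in lines 1, 2 and 4, which overlapped the controls. Direct CAP for 24 h left 2364, 2790 and 1873, and indirect CAP from day 1 left 2336, 2247 and 1549. All 6 of these libraries lay below all untreated libraries. Lower again were PAM from day 1 at 694, 2007 and 1157, indirect CAP from day 2 at 617, 986 and 300, and PAM from day 2 at 1080, 1316 and 141. Line 4 was the lowest line in every treated group except PAM from day 1, where line 1 was lowest, and also the lowest among the controls.

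The log2 fold change of Arg2 against untreated was -0.94 ± 0.19 (SE, adjusted p = 0.0145) with direct CAP for 24 h and -1.14 ± 0.19 (adjusted p = 0.0101) with indirect CAP from day 1. It was -1.91 ± 0.33 (adjusted p = 0.00236) with PAM from day 1, -2.96 ± 0.36 (adjusted p = 0.000427) with indirect CAP from day 2 and -2.91 ± 0.69 (adjusted p = 0.00982) with PAM from day 2. Arg2 thus fell in all 5 groups exposed for 24 h and was past the strict threshold in 3 of them, where its level was 0.265, 0.129 and 0.133 times that of the controls. With a replicate block for the line of origin, the fall with indirect CAP from day 1 passed the strict threshold (-1.07, adjusted p = 0.00575) and that with PAM from day 2 no longer did (-2.85, adjusted p = 0.0101). The size of the change with PAM from day 2 rested on line 4, without which it was -1.89 (adjusted p = 0.000426), and the strict call there was lost without any 1 of the 4 untreated libraries or line 1 of PAM from day 2 (adjusted p between 0.0121 and 0.0285). With PAM from day 1 it was lost without line 4 of that group (adjusted p = 0.0108).

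Exons of Arg2 overlap those of Vti1b on the opposite strand over 20% of their length and those of the antisense RNA Gm48780 over 8.12%, and the strand setting of the read counting is not given in the sources used here. The value of Gm48780 was between 18.5% and 30.5% of that of Arg2 across libraries. Vti1b ranged from 1174 to 2715 and was between 46.3% and 833% of Arg2, so that the pair did not keep one ratio. Reads shared by these genes cannot be told apart, and the Arg2 values are uncertain to that extent.

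**Figure D2:**
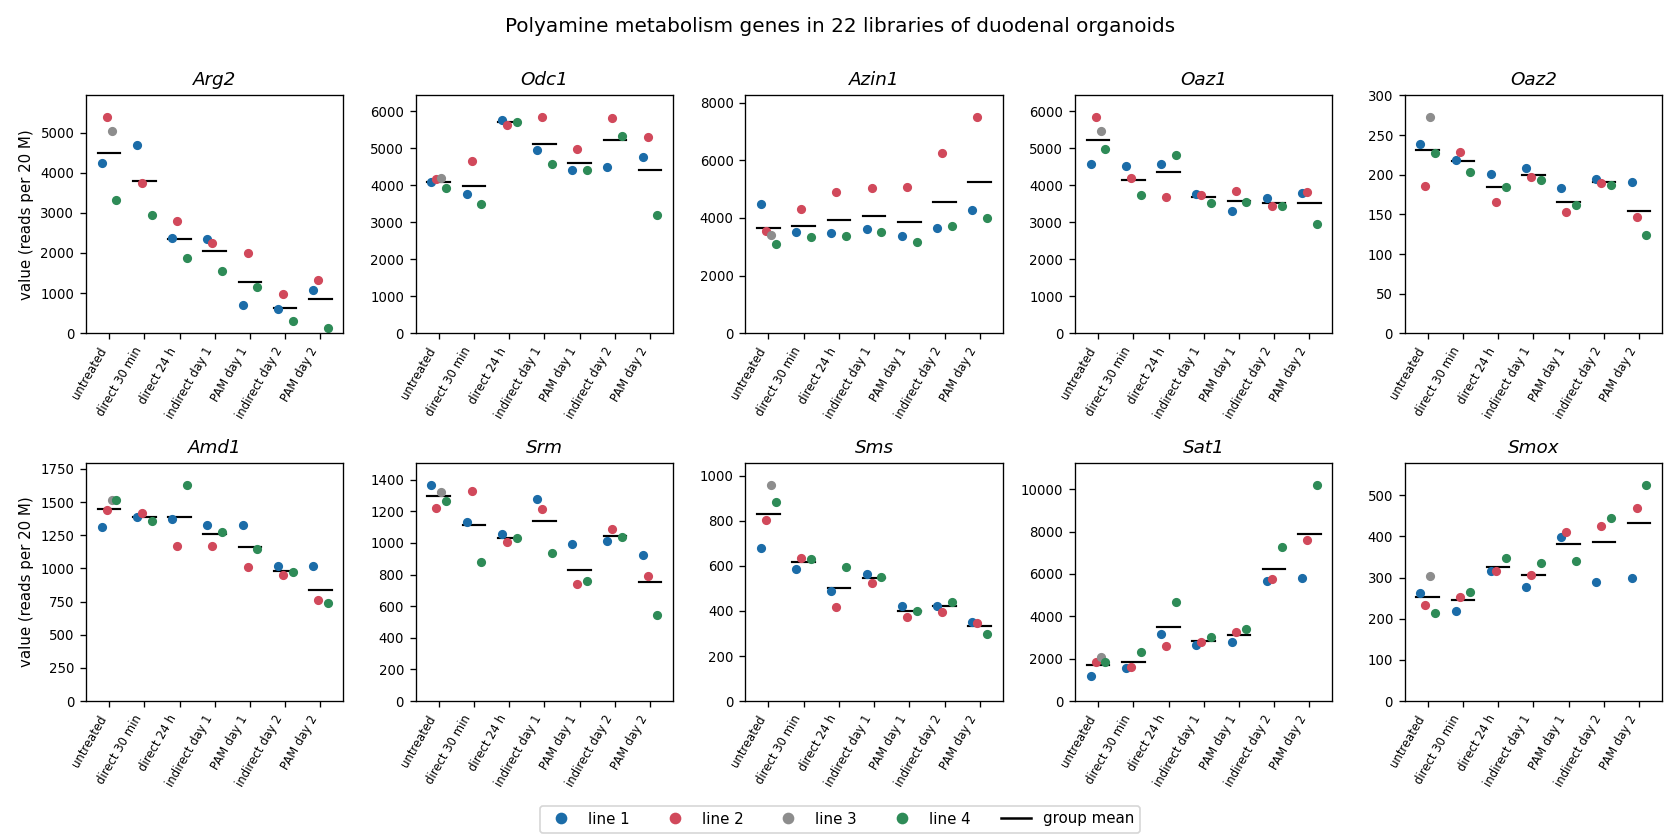
Values of the 10 polyamine genes (reads per 20 M, linear axes from 0) in the 22 libraries, by group, with colours for organoid lines and a black bar for the group mean. Arg2 and Sms lie below the 4 controls and Sat1 above them in every library exposed for 24 h, whereas Azin1 overlaps the controls in every group.

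Ornithine decarboxylase moved the other way, and by less. Odc1 (ENSMUSG00000011179, chr12:17544794-17551505, plus strand), the entry enzyme of the pathway, was steady among the controls at 4088, 4174, 4200 and 3919 in lines 1 to 4. With direct CAP for 30 min the values were 3775, 4645 and 3497 in lines 1, 2 and 4, on both sides of the controls. With direct CAP for 24 h they were 5763, 5629 and 5718, the narrowest set of any treated group and above each control. Odc1 values were 4951, 5846 and 4562 with indirect CAP from day 1, 4495, 5825 and 5330 with indirect CAP from day 2, and 4414, 4991 and 4413 with PAM from day 1. These 9 libraries also lay above the controls, while the values of 4765, 5310 and 3186 with PAM from day 2 straddled them, with line 4 below.

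Odc1 rose by 0.48 ± 0.07 (log2, SE, adjusted p = 0.00568) with direct CAP for 24 h, a level 1.39-fold that of the controls. It also rose with indirect CAP from day 1 (0.31 ± 0.09, adjusted p = 0.044) and from day 2 (0.34 ± 0.09, adjusted p = 0.0182). The difference was 0.17 ± 0.08 with PAM from day 1 (adjusted p = 0.11) and 0.08 ± 0.16 with PAM from day 2 (adjusted p = 0.72). Without line 4 of PAM from day 2 the latter was 0.30 (adjusted p = 0.0255). The rise with indirect CAP from day 1 was lost in 6 of 7 fits that left out 1 library, all but that without line 4 of the group (adjusted p up to 0.113), and that with indirect CAP from day 2 was lost without its line 2 (0.0578) or line 4 (0.0576). No Odc1 change reached the strict threshold, since all were under 1 on the log2 scale.

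A processed pseudogene on chromosome 5, Gm7993, shares 11.6% of its stretches of 100 bases with Odc1 transcripts and had values of 699 to 1163, between 17.8% and 22.4% of Odc1. It was also the gene most correlated with Odc1 over the 22 libraries (r = 0.968, log2 values, of 19360 genes compared), followed by Chchd5 (0.875), Gm44751 (0.825), Stard5 (0.813) and Eif1ad (0.812). Reads of the pseudogene and of Odc1 cannot be fully separated. With both values summed, the change with direct CAP for 24 h was still 0.48 (adjusted p = 0.00589), an alternative chosen after seeing the data.

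The regulators of ornithine decarboxylase did not move as a group. Oaz1 (ENSMUSG00000035242, chr10:80826656-80829290), the main antizyme, had values of 4576, 5855, 5480 and 4985 in untreated lines 1 to 4. It stood at 3773, 3744 and 3516 with indirect CAP from day 1 and at 3312, 3856 and 3542 with PAM from day 1 in lines 1, 2 and 4. It stood at 3665, 3444 and 3436 with indirect CAP from day 2 and at 3791, 3835 and 2968 with PAM from day 2. All 12 libraries given conditioned medium were below the controls, whereas direct CAP for 24 h (4582, 3696 and 4831) overlapped them.

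Oaz1 fell by 0.50, 0.55, 0.57 and 0.57 on the log2 scale in these 4 groups (SE between 0.09 and 0.13, adjusted p between 0.00192 and 0.0126), to levels between 0.674 and 0.707 times those of the controls. Its difference with direct CAP for 24 h was -0.26 ± 0.12 (adjusted p = 0.184). Each fall of Oaz1 kept an adjusted p under 0.05 in all 7 fits that left out 1 library. Oaz2, the less abundant antizyme, was between 186 and 273 in the controls and between 124 and 208 in the libraries exposed for 24 h, and its fall with PAM from day 1 (-0.47 ± 0.16, adjusted p = 0.0403) and from day 2 (-0.59 ± 0.20, adjusted p = 0.0378) was lost in 5 of 7 such fits each. Those were the fits without untreated lines 1, 3 or 4 or without line 2 or 4 of the treated group (adjusted p up to 0.111). Azin1, the antizyme inhibitor, passed the test in no comparison. Its values ranged from 3108 to 4481 in the controls and reached 6251 and 7504 in line 2 with indirect CAP and PAM from day 2, where lines 1 and 4 stayed between 3650 and 4258.

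Among the synthesis enzymes, the gene of the last step fell most. Sms (ENSMUSG00000071708, chrX:157443855-157492287, minus strand), which makes spermine from spermidine, had values of 681, 803, 960 and 881 in untreated lines 1 to 4. In lines 1, 2 and 4 it had 585, 634 and 632 with direct CAP for 30 min, 490, 418 and 593 with direct CAP for 24 h and 565, 523 and 549 with indirect CAP from day 1. It had 421, 374 and 400 with PAM from day 1, 424, 396 and 439 with indirect CAP from day 2 and 349, 346 and 299 with PAM from day 2. Every treated library was below every control, including the 30 min group, for which the difference of -0.42 ± 0.12 did not pass (adjusted p = 0.113).

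The log2 fold change of Sms was -0.73 ± 0.16 (adjusted p = 0.0166) with direct CAP for 24 h and -0.60 ± 0.12 (adjusted p = 0.015) with indirect CAP from day 1. It was -1.05 ± 0.13 (adjusted p = 0.000535) with PAM from day 1, -0.97 ± 0.12 (adjusted p = 0.000511) with indirect CAP from day 2 and -1.32 ± 0.14 (adjusted p = 0.000419) with PAM from day 2. Sms was past the strict threshold with PAM at both starts, close to it with indirect CAP from day 2, and its level with PAM from day 2 was 0.402 times that of the controls. With the replicate block, or without untreated line 3, the change with PAM from day 1 was -0.98 and so under the minimum of 1. With indirect CAP from day 2 the change of Sms crossed that minimum without untreated line 1 (-1.07) or line 4 of the group (-1.01). The fall with direct CAP for 24 h was lost without line 1 of that group (adjusted p = 0.0515).

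Srm, which makes spermidine from putrescine, was between 1218 and 1368 in the controls and 925, 790 and 545 with PAM from day 2 in lines 1, 2 and 4. It fell by 0.81 ± 0.17 there (adjusted p = 0.00587), by 0.65 ± 0.12 with PAM from day 1 (adjusted p = 0.00294) and by 0.31 ± 0.07 with indirect CAP from day 2 (adjusted p = 0.00955). With direct CAP for 24 h it fell by 0.33 ± 0.08 (adjusted p = 0.027), a call that was lost in 6 of 7 fits leaving out 1 library, all but that without untreated line 2 (up to 0.0726), and with indirect CAP from day 1 the difference was -0.19 ± 0.11 (adjusted p = 0.241). Amd1, which supplies the aminopropyl donor, was between 1314 and 1515 in the controls, 1021, 950 and 972 with indirect CAP from day 2 and 1018, 762 and 736 with PAM from day 2. It fell by 0.56 ± 0.08 (adjusted p = 0.000844) and 0.80 ± 0.13 (adjusted p = 0.00205) in these groups. With PAM from day 1 its fall of 0.32 ± 0.11 (adjusted p = 0.0399) was lost in 5 of 7 fits, without untreated lines 2, 3 or 4 or without line 2 or 4 of the group (up to 0.124). The direct CAP values for 24 h of 1369, 1172 and 1631 were on both sides of the Amd1 controls. Amd1 shares 64.2% of its stretches of 100 bases with its retrotransposed relative Amd2, whose own values were 1 to 10. Reads that match both genes cannot be told apart, and the Amd1 values are uncertain to that extent.

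Of the catabolic pair, Sat1 showed the largest rise of the 10 genes. Sat1 (ENSMUSG00000025283, chrX:155213132-155216449, minus strand), the acetyltransferase that starts polyamine breakdown and export, had values of 1166, 1826, 2065 and 1831 in untreated lines 1 to 4. Direct CAP for 30 min gave 1583, 1617 and 2333 in lines 1, 2 and 4, which overlapped the controls. The values were 3158, 2611 and 4678 with direct CAP for 24 h, 2640, 2795 and 3031 with indirect CAP from day 1, and 2780, 3248 and 3393 with PAM from day 1. All 9 libraries were above the controls. Exposure from day 2 brought Sat1 to 5681, 5749 and 7251 with indirect CAP and to 5811, 7620 and 10212 with PAM, and these 6 libraries lay above all others of the series.

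Sat1 rose by 1.004 ± 0.238 (adjusted p = 0.025) with direct CAP for 24 h, 0.74 ± 0.18 (adjusted p = 0.0247) with indirect CAP from day 1 and 0.89 ± 0.19 (adjusted p = 0.00581) with PAM from day 1. With indirect CAP from day 2 the rise was 1.88 ± 0.19 (adjusted p = 0.000192), a 3.67-fold level, and with PAM from day 2 it was 2.19 ± 0.24 (adjusted p = 0.000438), a 4.55-fold level. Only the day 2 groups were past the strict threshold. The rise of Sat1 with direct CAP for 24 h was lost without untreated line 2 (0.0533) or without line 1 (0.0589) or line 4 (0.0595) of the group. That with indirect CAP from day 1 was lost without untreated line 2 (0.0504) or without line 1 (0.0503), 2 (0.0567) or 4 (0.0738) of the group. Those with PAM from day 1 and with both media from day 2 kept an adjusted p under 0.05 in all 7 fits that left out 1 library.

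Among the genes whose pattern was most like that of Sat1 over the 22 libraries were Glt28d2 (r = 0.974), D1Ertd622e (0.97), Nupr1 (0.97) and Stom (0.968). These libraries share lines, treatment groups and controls, so the correlations only describe the order of the libraries.

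Smox, the oxidase that acts on spermine directly, was between 214 and 303 in the controls. It had 398, 410 and 340 with PAM from day 1, 290, 425 and 444 with indirect CAP from day 2 and 299, 470 and 526 with PAM from day 2 in lines 1, 2 and 4. PAM from day 1 was above every control, whereas line 1 of both day 2 groups was among them. Smox rose by 0.60 ± 0.15 (adjusted p = 0.0112), 0.59 ± 0.18 (adjusted p = 0.0286) and 0.74 ± 0.22 (adjusted p = 0.0236) in these groups. The first of these calls kept an adjusted p under 0.05 in all 7 fits that left out 1 library, and the others were lost without untreated line 2 or 4 or line 2 or 4 of the group (up to 0.102 and 0.0729). Its differences with direct CAP for 24 h (0.38 ± 0.14, adjusted p = 0.104) and indirect CAP from day 1 (0.28 ± 0.14, adjusted p = 0.179) did not pass.

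**Figure D3:**
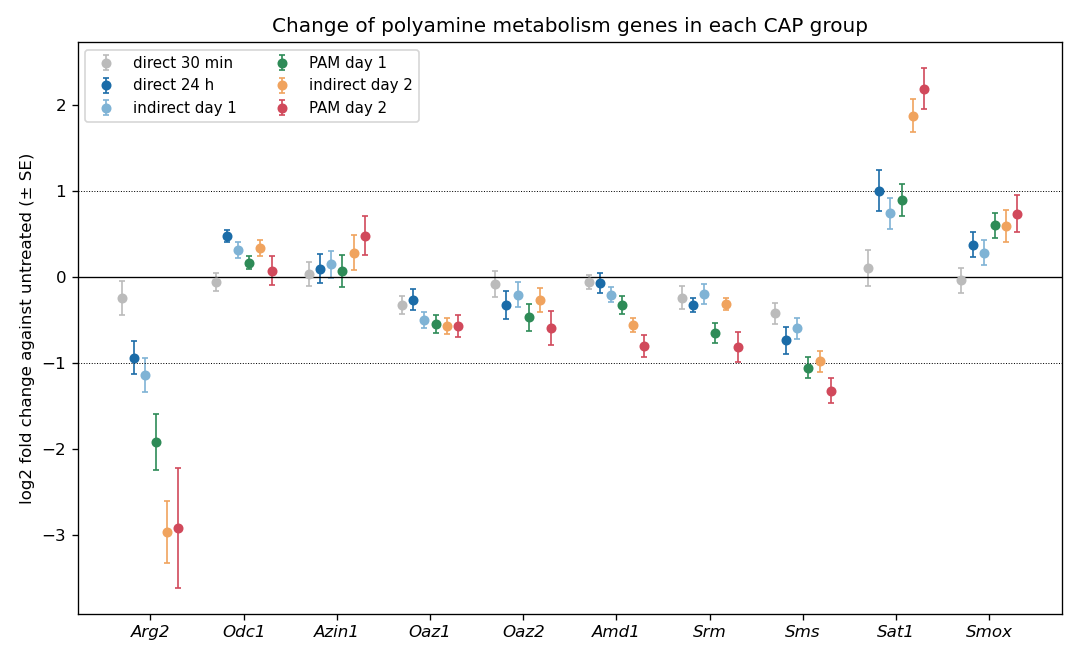
Log2 fold change against the 4 untreated libraries, with its SE, for each of the 10 genes in the 6 treated groups of 3 libraries, with dotted lines at 1 and -1. Arg2 reached -2.96 and Sat1 2.19, both in cultures exposed from day 2, and the 30 min group lay nearest to 0 for Arg2 and Sat1.

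The sequences just upstream of Sat1, which rose, and of Sms and Oaz1, which fell, are shown as examples. They are the 250 bases before the annotated start in RefSeq (GRCm38.p6), written 5′ to 3′ on the strand of the gene, and capitals mark a match to a motif searched on both strands. The motifs were the E-box CACGTG bound by MYC and MAX, the antioxidant response element core TGACNNNGC and the C/EBP-ATF response element TGATGNAAN. The windows are chrX:155216450-155216699 (minus strand) for Sat1, chrX:157492288-157492537 (minus strand) for Sms and chr10:80826406-80826655 (plus strand) for Oaz1.
Sat1: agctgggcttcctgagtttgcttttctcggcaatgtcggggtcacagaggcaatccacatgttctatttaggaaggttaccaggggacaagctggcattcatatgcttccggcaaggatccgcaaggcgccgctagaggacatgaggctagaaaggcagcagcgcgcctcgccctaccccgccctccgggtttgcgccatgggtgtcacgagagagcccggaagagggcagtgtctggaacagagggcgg
Sms: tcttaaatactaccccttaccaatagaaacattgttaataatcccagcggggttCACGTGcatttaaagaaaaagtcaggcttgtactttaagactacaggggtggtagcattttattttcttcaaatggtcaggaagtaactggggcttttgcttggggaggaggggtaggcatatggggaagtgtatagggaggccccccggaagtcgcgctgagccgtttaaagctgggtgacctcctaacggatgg
Oaz1: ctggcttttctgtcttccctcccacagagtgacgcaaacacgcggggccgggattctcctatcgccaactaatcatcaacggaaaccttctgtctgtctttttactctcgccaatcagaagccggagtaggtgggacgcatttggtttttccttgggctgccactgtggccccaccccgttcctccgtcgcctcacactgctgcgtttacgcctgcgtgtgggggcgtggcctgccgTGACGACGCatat

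Sms has a second annotated start with its own window (chrX:157491369-157491618), which held none of the motifs. The Sms window shown held an E-box with 190 bases between it and the start, and the Oaz1 window an antioxidant response element core with 4 bases between it and the start. Among 27025 promoter windows of the same length, 6.05% held the E-box, 10.1% the antioxidant response element core and 3.51% the C/EBP-ATF response element. Of the 10 genes 7 had a window, and Smox was the other gene with a match, to the antioxidant response element core, 184 bases before its RefSeq start. The Smox window (chr2:131491612-131491861) lies inside the gene as placed by GENCODE (chr2:131491496-131525922), and so does that of Oaz2. The Sat1 window, at 59.6% GC, held none of the motifs, and neither did those of Odc1, Amd1 and Oaz2. Amd1 and Oaz2 also fell in some groups, so no link between a match and the direction of change is read from the windows shown. A match of letters is a description of the window and not a binding site.

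The number of the 10 genes called differed between the groups, and so did the share of all genes called. With direct CAP for 30 min limma called 0 of the 10 genes (0.00564% of all genes tested by the 0.05 rule), and 2 genes, Sms and Oaz1, had an unadjusted p under 0.05. At an adjusted p under 0.05, 5 of the 10 genes were called with direct CAP for 24 h, where 17.3% of all genes tested were. Of these, 2 were higher (7.05% of all genes) and 3 lower (10.2%). Indirect CAP from day 1 had 5 called (20.6% of all genes), 2 higher (10.2%) and 3 lower (10.4%), and PAM from day 1 had 8 (41.8%), 2 higher (15.2%) and 6 lower (26.6%). From day 2, indirect CAP had 8 called (43.8%), 3 higher (20.3%) and 5 lower (23.5%), and PAM had 8 (47.6%), 2 higher (18.5%) and 6 lower (29.1%).

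Without a model, 2 of the 10 genes, Oaz1 and Sms, were lower in all libraries of direct CAP for 30 min than in all controls, as were 11.2% of all genes, and 0 were higher throughout (12.4%). With direct CAP for 24 h, 3 genes lay wholly above the controls (11.6% of all genes) and 3 wholly below (19.1%). With indirect CAP from day 1 these numbers were 2 (16.7%) and 3 (17.7%), and with PAM from day 1 they were 3 (17.1%) and 5 (29.7%). From day 2 they were 2 (22.7%) and 5 (25.8%) with indirect CAP and 1 (20.7%) and 5 (32.6%) with PAM.

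By the strict threshold 0 of the 10 genes were called with direct CAP for 24 h (2.17% of all genes tested) and 0 with indirect CAP from day 1 (1.31%), where 6 in each had an unadjusted p under 0.05. PAM from day 1 had 2 (Arg2 and Sms, against 10.2%), indirect CAP from day 2 had 2 (Arg2 and Sat1, against 11.9%) and PAM from day 2 had 3 (Arg2, Sms and Sat1, against 17.3%). The median log2 fold change of the 10 genes with PAM from day 2 was -0.58, beside -0.12 for all genes tested, and with indirect CAP from day 2 it was -0.29, beside -0.01.

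With PAM from day 1, direct CAP for 24 h and indirect CAP from day 1 pooled as 9 libraries against the 4 controls, Arg2 was the 1 gene past the strict threshold (-1.33 ± 0.30, adjusted p = 0.00416, against 6.34% of all genes). At an adjusted p under 0.05, 8 of 10 genes moved against 33.5% of all genes, 3 of them higher (14.8%) and 5 lower (18.7%). Odc1 and Sat1 lay wholly above the controls (7.16% of all genes) and Arg2 and Sms wholly below (10.5%). Sat1 (0.88 ± 0.16), Smox (0.42 ± 0.12) and Odc1 (0.32 ± 0.09) rose, and Sms (-0.79 ± 0.13), Oaz1 (-0.44 ± 0.10), Srm (-0.39 ± 0.13) and Oaz2 (-0.33 ± 0.12) fell along with Arg2. The 9 libraries come from only 3 lines, which the pooled comparison treats as independent. With the replicate block 6 of the 10 genes passed at 0.05, against 32% of all genes, and Srm (adjusted p = 0.0577) and Oaz2 (0.121) no longer did. The strict call of Arg2 was lost without untreated line 1 (adjusted p = 0.0136), line 2 (0.0179) or line 3 (0.0155). At 0.05, Smox was lost without untreated line 4 (0.0621). Srm was lost without any 1 of the 4 controls or line 4 of indirect CAP from day 1 (up to 0.0884), and Oaz2 in 8 of 13 fits (up to 0.16), those without untreated line 1, 3 or 4, line 2 of direct CAP, line 4 of indirect CAP or any line of PAM.

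The treated groups were also set against each other, 3 libraries against 3 from the same lines. Sat1 was the 1 gene of 10 that differed between indirect CAP from day 2 and from day 1 (1.13 ± 0.12, adjusted p = 0.0193, against 3.37% of all genes at the 0.05 rule and 0.0111% by the strict one), and it was higher from day 2 in each of 3 lines, by 1.04 to 1.26. That call was lost without line 1 or 2 of the day 1 group or line 2 or 4 of the day 2 group (up to 0.0996). With the line as a replicate block, Sat1 (adjusted p = 2.56e-05) and Arg2 (-1.82, adjusted p = 0.000107) were past the strict threshold in this comparison and Amd1 (-0.36, adjusted p = 0.00859) and Sms (-0.38, adjusted p = 0.0139) also fell. In that blocked fit 3.46% of all genes passed the strict threshold and 23.6% the 0.05 rule. Between PAM from day 2 and from day 1, the difference of Sat1 was 1.29 ± 0.21 (adjusted p = 0.0511), which passed at 0.05 with the block (0.02, where 10.6% of all genes passed) or without line 1 of PAM from day 2 (0.0315, where 5.35% passed). For Arg2 the 95% interval of that difference was -3.01 to 1.01, and without the block 0 of the 10 genes were called by limma (0% of all genes, with 2 of the 10 at an unadjusted p under 0.05).

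PAM and indirect CAP gave no call among the 10 genes by limma at either start (0% of all genes by both rules), with 3 genes from day 1 and 2 from day 2 at an unadjusted p under 0.05. From day 1, Sms was lower with PAM in each of 3 lines, with differences of -0.48 to -0.42 (-0.45 ± 0.10, 95% interval -0.69 to -0.22, adjusted p = 0.165), and Srm likewise, with -0.71 to -0.30 (-0.46 ± 0.17, adjusted p = 0.194). With the block, the adjusted p was 0.0232 for Sms and 0.0306 for Srm, 2 of the 10 genes where 18% of all genes passed at 0.05. For Sat1 the difference without the block was 0.15 (95% interval -0.10 to 0.40) from day 1 and 0.31 (-0.20 to 0.83) from day 2. By that fit, differences of that size between the media could not be told from none. Sat1 was higher with PAM than with indirect CAP in each of 3 lines at both starts. Direct CAP for 24 h against 30 min also gave no call by limma (0% of all genes, 4 of the 10 genes at an unadjusted p under 0.05). With the block, Sat1 (0.90, adjusted p = 0.00541) and Odc1 (0.53, adjusted p = 0.0414) were higher and Arg2 (-0.69, adjusted p = 0.0213) lower after 24 h, in a fit that called 8.14% of all genes at 0.05.

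Across libraries, Sat1 and Arg2 ran in opposite order (r = -0.856 over 22 libraries, log2 values). Sat1 and Smox ran together (r = 0.804), as did Srm and Oaz2 (0.88) and Sms and Amd1 (0.836). Odc1 followed neither direction, with r between -0.237 and 0.456 to the other 9 genes. The libraries share treatment groups and lines, so these values describe the order of the libraries only.

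**Figure D4:**
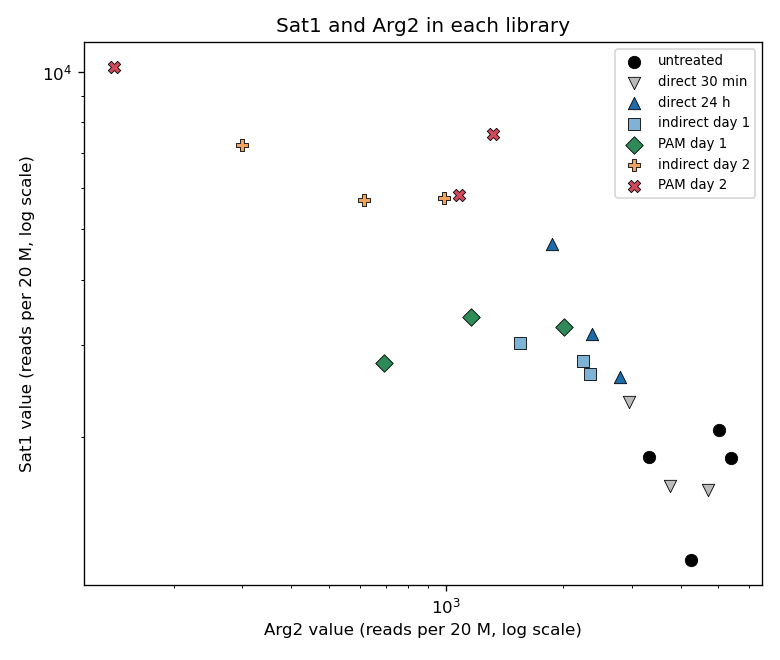
Sat1 against Arg2 in each of the 22 libraries (reads per 20 M, both axes on a log scale), with a symbol for each group. The 6 libraries exposed from day 2 lie at the upper left, with Sat1 at 5681 or more and Arg2 at 1316 or less, and the untreated and 30 min libraries at the lower right.

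Other genes around the pathway were read from fixed lists, with calls by the strict threshold in at least 1 comparison with untreated organoids. By that rule 21.9% of all 18824 genes tested were called, 10.7% higher and 11.2% lower in at least 1 of them, and with so few genes a list nothing is read from the counts beyond the genes named. Of 11 genes for ornithine and arginine supply, 3 were called, all lower. Otc, which makes citrulline from ornithine, was 2600 to 3072 in the controls and 428, 363 and 120 with PAM from day 2 in lines 1, 2 and 4 (-3.40 ± 0.39, adjusted p = 0.000508). Oat, the aminotransferase between ornithine and glutamate semialdehyde, was 8098 to 11866 in the controls and 2468, 2041 and 609 there (-2.71 ± 0.44, adjusted p = 0.00187). Neither overlapped the controls in that group, and Arg2 fell beside them. Slc25a15, the mitochondrial ornithine carrier, fell with PAM from day 1 (-1.10 ± 0.22, adjusted p = 0.00483).

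The remaining catabolic enzymes went in opposite directions. Aoc1, the diamine oxidase that degrades putrescine and histamine, was 4163 to 6224 in the controls and 1194, 1915 and 323 with PAM from day 2 (-2.55 ± 0.52, adjusted p = 0.00525). Paox, the oxidase of acetylated polyamines that acts after SAT1, was 364 to 480 in the controls and 979, 716 and 1435 with PAM from day 1 (1.26 ± 0.22, adjusted p = 0.0027). Its level was highest in line 4 of each treated group. Sat2, the third gene of that list, was too low to test.

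Of 10 transport genes tested of 11 listed, 4 were called lower and 1 higher. The organic cation transporter Slc47a1 (-1.89 ± 0.42 with indirect CAP from day 2, adjusted p = 0.00748) was among the lower ones, with Slc12a8 (-1.55 ± 0.33 with PAM from day 2, adjusted p = 0.00661). Slc47a1 was not lower in every group. From 85 to 110 in the controls it went to 116 to 187 with direct CAP for 30 min and 126 to 197 for 24 h. With PAM from day 1 it was 135 to 286. Indirect CAP from day 1 (83 to 155) and PAM from day 2 (20 to 100) overlapped the controls. Slc18b1 was also lower (-1.24 ± 0.28 with PAM from day 2, adjusted p = 0.00852) and the higher gene was Slc3a2 (1.24 ± 0.10, adjusted p = 0.000321), the heavy chain of amino acid exchangers, both named after their values were seen. Slc3a2 was 2430 to 2793 in the controls and 5378 to 6770 with PAM from day 2. The genes of S-adenosylmethionine and methylthioadenosine salvage had 3 of 8 tested called, all lower with PAM from day 2. They were Ahcy, which hydrolyses S-adenosylhomocysteine (-1.73 ± 0.22, adjusted p = 0.000761), and the salvage enzymes Apip (-1.53 ± 0.30, adjusted p = 0.00418) and Enoph1 (-1.07 ± 0.21, adjusted p = 0.00425).

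The 4 hypusination genes encode forms of the translation factor eIF5A (Eif5a and Eif5a2) and the enzymes that modify it with spermidine (Dhps and Dohh). Of these 1 was called, Eif5a2 with PAM from day 1 (2.06 ± 0.46, adjusted p = 0.00762), from a control level of only 33.0 ± 19.5 (SD, n = 4). Of the paralogs of the antizyme system, Azin2 rose with indirect CAP from day 2 (1.65 ± 0.36, adjusted p = 0.00708) from 37.3 ± 11.2 to 124 ± 56.0 (SD, n = 4 and 3). Of 6 genes of the MYC network, which is known to act on Odc1, 2 were called. Mxd1, a partner of MAX that opposes MYC, rose with PAM from day 1 (1.71 ± 0.17, adjusted p = 0.000287), and Mycn fell with PAM from day 2 (-3.95 ± 0.71, adjusted p = 0.00304) from a control level of only 29.8 ± 19.1. Myc itself, named as the gene that gives the network its name, fell by 0.69 ± 0.23 with PAM from day 2 (adjusted p = 0.041) without passing the strict threshold. Its mean was 2660 in the controls and was higher than that in every other treated group. Those means ran from 2747 with direct CAP for 30 min to 3480 with indirect CAP from day 1. With PAM from day 2 the median log2 fold change was -0.87 over the 11 supply genes, -0.86 over the 8 transport genes tested there and -0.99 over the 8 salvage genes. For the 2 catabolic genes it was -0.90, between 2 opposite changes of -2.55 (Aoc1) and 0.76 (Paox). For the 2 paralogs of the antizyme system it was 0.63, again between opposite changes of -0.33 and 1.59. It was 0.01 over the 4 hypusination genes and -0.06 over the 6 genes of the MYC network, beside -0.12 for all genes tested. Other groups had other medians, such as 0.07 for the supply genes with indirect CAP from day 1, beside 0.00 for all genes.

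**Figure D5:**
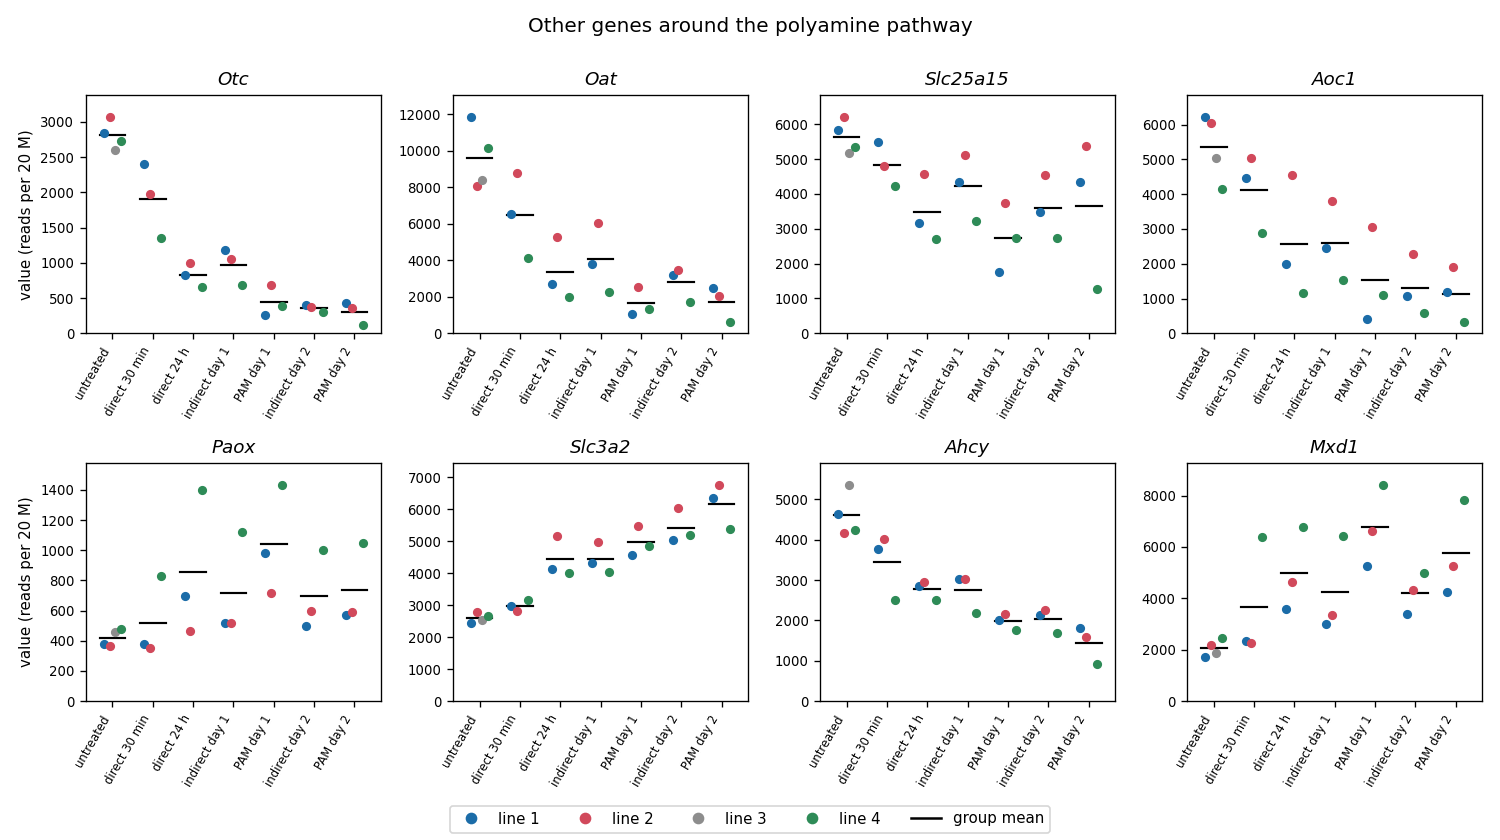
Values (reads per 20 M, linear axes from 0) of 8 further genes around the pathway in the 22 libraries, by group, with colours for organoid lines and a black bar for the group mean. Otc falls from 2600 or more in the controls to 428 or less with PAM from day 2, and Paox is highest in line 4 of each treated group.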

How the data were processed

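RNA of 22 organoid libraries (paired-end, total RNA, Ovation SoLo kit per the labels) was quantified by the authors, whose processing notes name Trimmomatic 0.36, STAR 2.5.3a and HTSeq 0.9.1 on GRCm38. The paper also names edgeR for the authors' own tests. The deposited values are a score per gene and library, CP20M, for which the authors brought each library's reads to a total of 20 M and rounded up. Because the deposited unit is not raw counts, no count test was run. The test was limma 3.58.1 (moderated, with trend, R 4.3.3) on log2(value + 1) over genes with a value of at least 10 in at least 3 of the libraries fitted, with Benjamini-Hochberg adjustment over all genes tested. The strict threshold is that of the study's methods. The 12 comparisons were fitted on their own groups only. The procedure was run on simulated libraries that had no effect of organoid line and planted changes larger than most reported here. That run therefore does not show how the procedure handles shared lines or smaller changes. Figures were drawn with Python 3.11.15 and matplotlib 3.10.9. Whether replicates were separate cultures is given only by line, so that p-values measure the spread between these libraries.

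The members and gene lists were chosen with earlier results of these data known. The genes named by rule are the 10 members, at most 3 strictly called genes of each pathway list with the largest change, and the 5 genes most correlated with Odc1 and with Sat1. Of the genes this rule names, 2 are not reported here. Myc, Slc18b1 and Slc3a2 fall outside it and were chosen after their values were seen. Positions, exon lengths and overlaps are from GENCODE vM21 (52403 of 52636 gene identifiers matched), and upstream sequences from RefSeq. Dohh has 2 rows in the table, of which the higher was used.

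Libraries with the same number come from the same line. In all 45 same-line pairs of treated libraries the deviations from group means correlated above 0.1 (median r 0.564), and with untreated libraries 15 of 18 pairs did (median 0.149), so an alternative blocked on the line. Other alternatives were a fit of all groups together, values without a filter, quantile normalization, a pseudocount of 10, an adjusted p under 0.05 alone, each library left out in turn, the untreated libraries of lines 1 and 2 left out together and, chosen after seeing the data, Odc1 summed with its pseudogene. There were 0 pairs of libraries with identical values. Protein sequences were not used here, and stainings and quantitative PCR were not analysed here.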

Additional observations from a re-analysis of the deposited data

Results flagged for a closer look

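Among the 9 libraries exposed for 24 h from day 1, Sat1 in line 4 of direct CAP stood apart from the others at 4678, with the nearest library at 3393. The gap was 0.622 of the whole range and so above Dixon's 95% critical value. Of 20 sets of libraries checked in this way it was the 1 set with such a library, and chance alone gives about 1 in 20. Without that library the rise of Sat1 with direct CAP for 24 h was 0.77 (adjusted p = 0.0595).

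With a replicate block for the line of origin, the effects of indirect CAP given from day 2 and from day 1 differed for Arg2 (-1.82) and for Sat1 (1.13), in a fit in which 3.46% of all genes passed the strict threshold and 23.6% passed at 0.05. Without the block Sat1 passed at 0.05 (adjusted p = 0.0193) and Arg2 did not (0.0636). Arg2 was lower from day 2 in each of 3 lines and Sat1 higher in each of 3 lines.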

How the results depend on the processing

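Of 682 values of the 10 genes under alternatives other than leaving out 1 library, 656 kept direction and side of the strict threshold, 11 lost and 9 gained it and 6 changed sign. Of 850 values with 1 library left out, the numbers were 795, 10, 2 and 43, none of the sign changes being of a gene past that threshold. Signs changed for Oaz2 (0.0044) and Smox (0.054) with direct CAP for 30 min under the replicate block, for Sat1 in that group (-0.10) without the untreated libraries of lines 1 and 2, and with quantile normalization for Amd1 between direct CAP for 24 h and 30 min (0.0092) and for Oaz2 between day 2 and day 1 of indirect CAP (0.053) and of PAM (0.062). Quantile normalization moved the median of all genes with PAM from day 2 from -0.12 to 0.00 and made the strict call of Smox there (1.04). The cause of these changes was not tested.

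The number of the 10 genes past the threshold, given in the report as 1 for the pooled 24 h libraries, was 0 with all groups in one fit, 0 without the untreated libraries of lines 1 and 2 and 8 at an adjusted p under 0.05 alone. For direct CAP for 24 h (0) it was 1 in one fit and 5 at 0.05. For indirect CAP from day 1 (0) it was 1 with a pseudocount of 10, 1 with no filter, 1 with the replicate block and 5 at 0.05. For PAM from day 1 (2) it was 1 with quantile normalization, in one fit, with the block and without those untreated libraries, and 8 at 0.05. With indirect CAP from day 2 (2) it was 8 at 0.05, and with PAM from day 2 (3) 8 at 0.05 and 0 without those untreated libraries, when 2 controls remained and 0.00583% of all genes passed. There Sat1 was 1.98 (adjusted p = 0.0126), Sms -1.47 (0.0126) and Arg2 -2.80 (0.0798). Between day 2 and day 1 it was 2 with the block and 1 at 0.05 for indirect CAP (0), and 1 in one fit for PAM (0). Leaving out 1 library gave 0 to 1 for the pooled libraries, 1 to 2 for PAM from day 1, 2 to 3 for indirect CAP from day 2, 2 to 3 for PAM from day 2 and 0 to 0 elsewhere. Smaller moves of the count under the other alternatives are not listed. With PAM from day 2, Arg2 lost its strict call with the replicate block and Smox gained one with quantile normalization.

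The replicate block pairs libraries by line. It drops line 3, and the line labels of untreated libraries 1 and 2 are in doubt. At 0.05 it gave 6 genes for the pooled libraries (32% of all genes), 4 for direct CAP for 24 h (12.8%), without Srm (adjusted p = 0.106), 6 for PAM from day 1 (38.6%), without Oaz2 (0.0678) and Amd1 (0.114), and 7 for PAM from day 2 (43.6%), without Oaz2 (0.0771).

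With 1 library left out, differences that changed sign ranged as follows. With direct CAP for 30 min they were -0.17 to 0.033 for Odc1, -0.072 to 0.14 for Azin1, -0.18 to 0.0044 for Oaz2, -0.074 to 0.21 for Sat1 and -0.11 to 0.054 for Smox. Against untreated, Azin1 ranged from -0.072 to 0.20 with direct CAP for 24 h, -0.019 to 0.25 with indirect CAP from day 1 and -0.14 to 0.20 with PAM from day 1, Amd1 from -0.19 to 0.050 with direct CAP for 24 h and Odc1 from -0.071 to 0.30 with PAM from day 2. Between direct CAP for 24 h and 30 min the ranges were -0.11 to 0.17 for Azin1, -0.011 to 0.18 for Oaz1, -0.13 to 0.11 for Amd1 and -0.25 to 0.049 for Srm. Between PAM and indirect CAP from day 1 they were -0.29 to 0.090 for Azin1 and -0.10 to 0.0078 for Oaz1, and from day 2 -0.54 to 1.07 for Arg2, -0.089 to 0.45 for Azin1, -0.067 to 0.12 for Oaz1 and -0.049 to 0.39 for Smox. Between day 2 and day 1 they were -0.057 to 0.13 for Odc1 and -0.12 to 0.30 for Azin1 with indirect CAP, and with PAM -1.58 to 0.024 for Arg2, -0.24 to 0.13 for Odc1, -0.087 to 0.098 for Oaz1, -0.29 to 0.018 for Oaz2, -0.33 to 0.054 for Srm and -0.025 to 0.38 for Smox.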
